A study of Mus musculus with 8 samples.

Results

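Iron binding and transport genes were followed in tumors grown from disseminated tumor cells (DTC tumors) and in mammary tumors of the BALB-neuT mouse. The set was a list of 10 genes, the iron-binding membrane protein gene *Mfi2* (now named *Meltf*) and 9 companions in iron uptake, binding, export, storage and haem breakdown. Each gene was read from the probe set annotated with that symbol alone, and 8 of the 10 genes, among 22180 genes in all, had such a probe set. *Mfi2* was taken into the list because of its difference in this same comparison, so its levels are described here without a test. The RNA of 8 tumors, 4 of each kind, was measured with 1 Affymetrix gene array per tumor, and the question was which transcripts distinguish the 2 kinds of tumor.

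According to the labels, the DTC tumors were raised from 3000000 to 5000000 bone marrow cells of BALB-neuT mice and the mammary tumors from 100000 tumor cells, each injected under the skin with 1 µg of the growth factor bFGF in Matrigel. BALB-neuT mice carry an activated rat *Her2/neu* oncogene driven by the mouse mammary tumor virus promoter, and both groups share it. The study describes both kinds of tumor as grown in NSG mice, which lack mature T, B and NK cells. It injected pooled donor marrow at first and marrow of single donors later, and the paper does not say which gave the tumors measured here. The labels name the donor cells early disseminated tumor cells, while the study obtained DTC tumors from late donors. The labels derive the mammary tumors from TUBO cells, a line made from a BALB-neuT mammary tumor, while the methods speak of primary tumors. Under the labels' account all 4 mammary tumors come from 1 cell line, and traits of that line cannot be told apart from a difference between tumor types. No source states that the tumors of a group grew in different mice. The p-values therefore cover only the spread between these tumors, and the number of arrays limits the precision.

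Cells take up iron bound to serum transferrin through the transferrin receptor, reduce it in endosomes and move it into the cytosol, where ferritin stores it and ferroportin exports the surplus. Haem oxygenase frees the iron of haem. Iron regulatory proteins bind the messenger RNAs of several of these genes, so part of their control lies in mRNA stability and translation, and the arrays measured transcripts only. HIF, the factor stabilized when oxygen is low, is known to activate the transferrin receptor and haem oxygenase genes in other systems.

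Across the set, *Mfi2* was lower in all 4 DTC tumors, *Tfrc*, *Fth1* and *Hmox1* had higher means in DTC tumors without passing the test, and *Ltf* and *Slc40a1* differed more among DTC tumors than between the groups. Of the 8 measured genes, the mean was higher in DTC tumors for 4 and lower for 4. Their median log2 difference was -0.01, against 0.01 over all 22180 genes, 51.7% of which had a higher mean in DTC tumors. A probe set was called here at a p of at most 0.05 from limma after Benjamini-Hochberg adjustment and an absolute log2 difference of at least 1, the false discovery rate and fold limits of the study's methods. This was met by 1 of the 7 measured members that passed the filter on the interquartile range, *Mfi2*, beside 0.132% of all 18877 probe sets tested, and nothing is read from that count because *Mfi2* was chosen on this contrast. The other 6 members past the filter had adjusted p values from 0.264 to 0.784 in limma. Of the 7 measured companions, *Tfrc* and *Fth1* had an unadjusted p of at most 0.05 in limma without that filter, as did 13.4% of all genes. *Hmox1* lay at the edge, with an unadjusted p from limma of 0.0486 with the filter and 0.0557 without it.

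**Figure D1:**
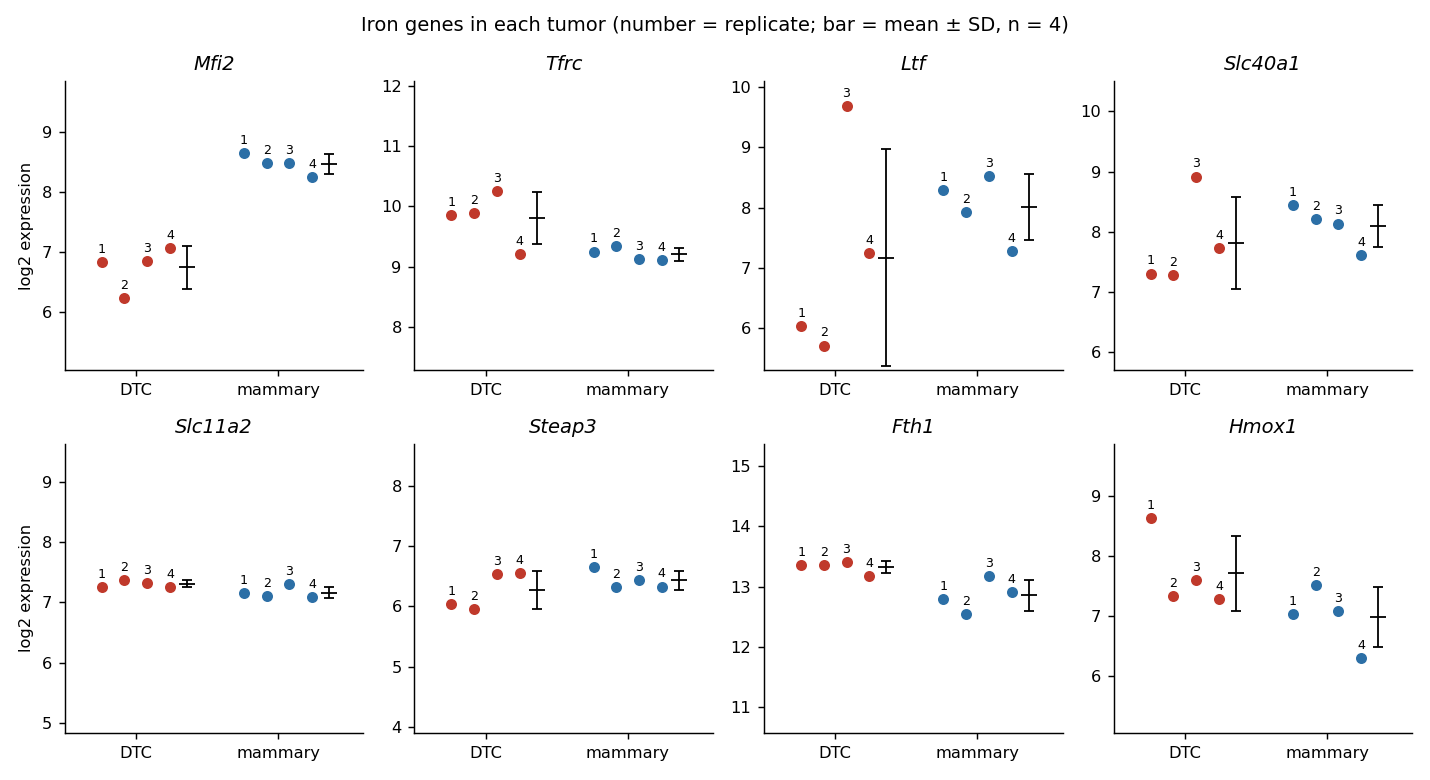
Log2 expression of the 8 measured iron genes in each tumor, DTC tumors in red at the left and mammary tumors in blue at the right, with the tumor number beside each point and bars for the mean ± SD (n = 4). Every panel spans the same number of log2 units. *Mfi2* lay between 6.24 and 7.07 in DTC tumors, below all mammary tumors, while *Ltf* spread over 3.98 units among DTC tumors.

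*Mfi2* encodes melanotransferrin, a member of the transferrin family that is anchored to the cell membrane and binds iron. Its log2 expression was 6.83, 6.24, 6.85 and 7.07 in DTC tumors 1 to 4, against 8.64, 8.48, 8.48 and 8.25 in mammary tumors 1 to 4. The highest DTC tumor thus lay below the lowest mammary tumor by more than a log2 unit. The means were 6.75 ± 0.35 in DTC tumors and 8.46 ± 0.16 in mammary tumors (SD, n = 4 each), a log2 difference of -1.72, or a level 3.29-fold lower in DTC tumors. With any 1 tumor left out the difference lay between -1.82 and -1.55. This is the contrast on which the gene was chosen, and the values stand as a description.

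*Tfrc* encodes the transferrin receptor, the main route of iron into dividing cells. It measured 9.86, 9.89, 10.25 and 9.21 on the log2 scale in DTC tumors 1 to 4, against 9.25, 9.34, 9.13 and 9.11 in mammary tumors 1 to 4. DTC tumors 1, 2 and 3 were above all mammary tumors, and DTC tumor 4 fell inside their range. The means were 9.80 ± 0.43 in DTC tumors and 9.21 ± 0.11 in mammary tumors (SD, n = 4 each). The log2 difference of 0.60 (standard error 0.22, 95% interval 0.12 to 1.07) did not pass (adjusted p = 0.264 from limma). Leaving out DTC tumor 4 gave 0.79, still short of the threshold (adjusted p = 0.125 from limma), and leaving out DTC tumor 3 gave 0.45. Among DTC tumors the SD of *Tfrc* was reached or exceeded by 5.73% of all genes, and among mammary tumors by 72.6%.

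Markers of dividing cells, which depend on this receptor for iron, were set beside it because their median level differed between the groups. The median log2 level of 7 measured markers of the 8 listed lay between 9.09 and 9.34 in DTC tumors and between 8.55 and 8.97 in mammary tumors, with no overlap. Of the 7 single markers 2, *Mki67* and *Top2a*, were above without overlap, beside 3.89% of all genes. The mean was higher in DTC tumors for 6 and lower for 1, and 0 passed the adjusted p of limma. Among DTC tumors alone, tumor 3, with the highest *Tfrc*, had the lowest marker level (9.09), and tumor 4, with the lowest *Tfrc*, had 9.31. Between the groups, both *Tfrc* and the marker level were higher on average in DTC tumors. The part of cell division in the *Tfrc* values was not tested. In bulk tumor RNA, fewer cells of a type and less RNA per cell cannot be told apart.

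*Slc11a2* encodes DMT1, which carries ferrous iron out of the endosome, and *Steap3* encodes the endosomal reductase that supplies it. *Slc11a2* was nearly constant, at 7.26, 7.38, 7.33 and 7.26 in DTC tumors 1 to 4, against 7.16, 7.11, 7.30 and 7.09 in mammary tumors 1 to 4. It was the 1 measured member with an interquartile range at or below 0.25, and its log2 difference of 0.14 (95% interval -0.06 to 0.34) did not pass in the fit without that filter (adjusted p = 0.614 from limma). *Steap3* stood at 6.04, 5.95, 6.54 and 6.55 in DTC tumors 1 to 4, against 6.65, 6.32, 6.43 and 6.33 in mammary tumors 1 to 4. DTC tumors 1 and 2 were below every mammary tumor and DTC tumors 3 and 4 inside their range. The log2 difference was -0.16 (95% interval -0.58 to 0.26, adjusted p = 0.780 from limma), and from -0.26 to -0.06 with any 1 tumor left out. Transferrin itself (*Trf*), the serum carrier of iron, has no value here because its 1 probe set is also annotated to *Srprb*.

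*Ltf* encodes lactoferrin, an iron-binding protein of milk and of neutrophil granules. It measured 6.04, 5.71, 9.69 and 7.24 in DTC tumors 1 to 4, against 8.29, 7.93, 8.53 and 7.28 in mammary tumors 1 to 4. DTC tumor 3 was thus the highest of all 8 tumors, while the other DTC tumors were below all mammary tumors. The range among DTC tumors was 3.98 log2 units, and only 0.0361% of all genes had an SD among DTC tumors as large as its 1.80. The means were 7.17 ± 1.80 in DTC tumors and 8.01 ± 0.54 in mammary tumors (SD, n = 4 each). The log2 difference was -0.84 (95% interval -2.42 to 0.74, adjusted p = 0.663 from limma), and it moved with single DTC tumors left out. It was -1.68 without DTC tumor 3 (adjusted p = 0.111 from limma), -0.47 without DTC tumor 1 and -0.35 without DTC tumor 2.

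Genes of both sources of lactoferrin were set beside it. Over 7 of 7 milk genes the median log2 level in DTC tumors was 5.09 to 6.08, with DTC tumor 3 at 5.95, and in mammary tumors 5.61 to 7.89. Among DTC tumors, tumor 3 was the highest for 4 of these 7 genes (*Csn3*, *Csn1s1*, *Wap* and *Lao1*) and not for *Csn2*, *Lalba* or *Glycam1*. The casein *Csn1s1* measured 8.40, 8.08, 9.49 and 5.09 in DTC tumors 1 to 4, against 7.56, 5.61, 7.04 and 7.89 in mammary tumors 1 to 4, so that DTC tumors 1 and 2, lowest for *Ltf*, were also above all mammary tumors. *Csn2* went the other way, at 4.95, 6.08, 4.73 and 4.05 in DTC tumors 1 to 4, against 8.24, 6.01, 7.80 and 9.12 in mammary tumors 1 to 4. Its log2 difference was -2.84 (adjusted p = 0.0979 from limma). Of the 7 milk genes the mean was higher in DTC tumors for 4 and lower for 3. *Csn3* was below without overlap, beside 5.76% of all genes. Over 9 of 9 neutrophil granule genes the median was 4.15 to 4.56 in DTC tumors, with DTC tumor 3 at the top, and 3.88 to 4.53 in mammary tumors. Tumor 3 was the highest DTC tumor for 3 of the 9 (*Cd177*, *S100a8* and *S100a9*), with *Cd177* at 11.24 there and at 10.26 to 10.87 in mammary tumors. *S100a8* and *S100a9* were at 4.83 and 4.56 there, and *S100a9* reached 4.79 in mammary tumors. Apart from *Cd177*, no gene of this list exceeded 5.38 in any tumor. *Camp*, a protein of the same granules as lactoferrin, and *Ly6g* stayed in all 8 tumors below 3.95, the level under which the dimmest 25% of probe sets lie. *Csn1s1*, *Csn2*, *Csn3*, *Cd177*, *Camp* and *Ly6g* were picked with their values in view. The part of either cell type in the *Ltf* values was not tested.

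*Slc40a1* encodes ferroportin, the exporter of cellular iron, which is abundant in macrophages that recycle red cells. Its levels were 7.31, 7.29, 8.92 and 7.74 in DTC tumors 1 to 4, against 8.44, 8.22, 8.14 and 7.62 in mammary tumors 1 to 4. As for *Ltf*, DTC tumor 3 was the highest of all 8 tumors and DTC tumors 1 and 2 the lowest. The means were 7.82 ± 0.77 in DTC tumors and 8.10 ± 0.35 in mammary tumors (SD, n = 4 each). The log2 difference was -0.29 (95% interval -1.04 to 0.47, adjusted p = 0.784 from limma), and it was -0.66 without DTC tumor 3 (adjusted p = 0.220 from limma). Leaving out DTC tumor 1 gave -0.12 and leaving out DTC tumor 2 gave -0.11. Leaving out mammary tumor 1 gave -0.18, and mammary tumor 4, the lowest of its group, -0.45. The median level of 8 of 8 macrophage markers was 7.69 to 8.24 in DTC tumors and 7.71 to 8.01 in mammary tumors, and DTC tumor 3 had the lowest value of all (7.69). For 1 of these markers, *Cd163*, which takes up haemoglobin, DTC tumor 3 was instead the highest of all 8 tumors (6.66). The part of macrophages in the *Slc40a1* values was not tested.

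**Figure D2:**
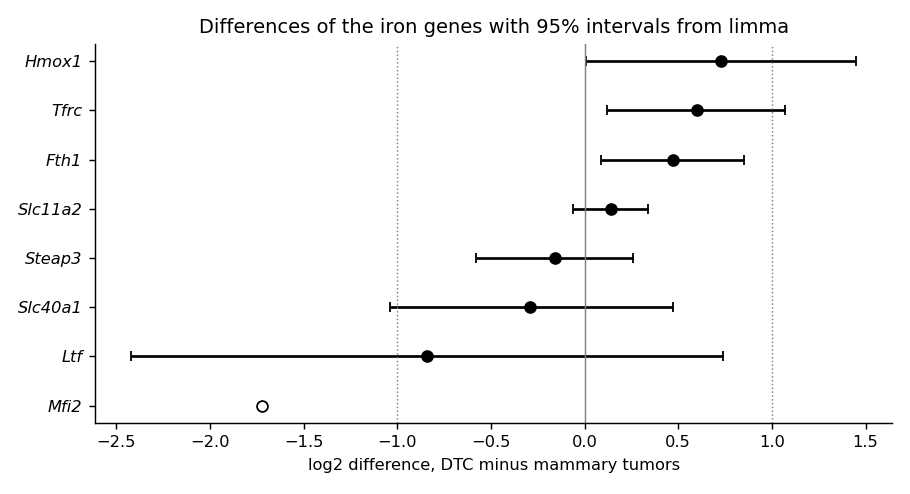
Log2 difference, DTC minus mammary tumors, of the 8 measured iron genes in order of size from top to bottom, with 95% intervals from limma as bars. Dotted lines mark the fold threshold of 1 log2 unit, the open point is *Mfi2* at -1.72, shown without an interval because it was chosen on this contrast, and the intervals of *Hmox1*, *Tfrc* and *Fth1* lie above 0 before any adjustment.

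*Fth1* encodes the heavy chain of ferritin, which oxidizes iron for storage. Its log2 levels were 13.35, 13.35, 13.40 and 13.18 in DTC tumors 1 to 4, against 12.79, 12.54, 13.17 and 12.91 in mammary tumors 1 to 4. All DTC tumors were above all mammary tumors, by a margin of 0.01 between DTC tumor 4 and mammary tumor 3, and groups set apart in this direction were found for 3.89% of all genes. The means were 13.32 ± 0.10 in DTC tumors and 12.85 ± 0.26 in mammary tumors (SD, n = 4 each), a 1.38-fold higher level in DTC tumors. The log2 difference of 0.47 (standard error 0.17, 95% interval 0.09 to 0.85) did not pass (adjusted p = 0.269 from limma). The light chain, *Ftl1*, has no value here because its 6 probe sets are shared with 2 pseudogenes, and probes for *Fth1* could read transcribed copies of it as well.

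*Hmox1* encodes haem oxygenase 1, which opens the haem ring and frees its iron. It stood at 8.62, 7.34, 7.60 and 7.28 in DTC tumors 1 to 4, against 7.03, 7.51, 7.09 and 6.30 in mammary tumors 1 to 4. DTC tumor 1 was the highest and mammary tumor 4 the lowest, and the groups overlapped. The means were 7.71 ± 0.62 in DTC tumors and 6.98 ± 0.50 in mammary tumors (SD, n = 4 each), a 1.66-fold higher level in DTC tumors. The log2 difference of 0.73 (standard error 0.33, 95% interval 0.01 to 1.45) did not pass (adjusted p = 0.337 from limma). It was 0.43 without DTC tumor 1 (adjusted p = 0.581 from limma). Over 5 of 8 erythroid markers, without the globin genes *Hbb-b1* and *Hba-a1*, which were not measured, the median log2 level was 4.95 to 5.04 in DTC tumors and 4.79 to 4.99 in mammary tumors.

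The core letters of a HIF site, ACGTG or GCGTG on either strand, were searched in the 250 bases before each start site in the RefSeq promoter windows (GRCm38.p6), a choice made after the values were seen. Windows were on hand for 6 of the 10 genes, 11 windows in all, and 5 windows of 4 genes (*Tfrc*, *Fth1*, *Ftl1* and *Steap3*) held a match. For comparison, 38.6% of all 32851 windows held one. Neither the *Mfi2* nor the *Ltf* window held these letters. *Hmox1*, *Slc40a1*, *Slc11a2* and *Trf* were not among the windows. The stretches of *Tfrc* and *Fth1* are shown because these 2 genes had an unadjusted p of at most 0.05, with the matched letters in capitals, 5′ to 3′ on the plus strand.
*Tfrc*, chr16:32608882-32608911: ctcggtaggtgtACGTGcggaaggaagtga
*Fth1*, chr19:9982584-9982613: gggtttgggcaaCACGCccacaggaagagg
The *Tfrc* windows held 5 matches, 2 in one and 3 in the other, and the one shown, picked after the search, begins 228 bases before the start site at position 32609122 and crosses the other annotated start site at 32608896. The *Fth1* match reads GCGTG on the opposite strand and begins 50 bases before the start site at 9982646. The other *Fth1* window, at the start of the gene, held no match, and neither did most windows of *Steap3*. A match describes the letters and says nothing of binding in these tumors.

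*Mfi2* and *Tfrc* are on the same chromosome, 16, with 20 measured genes between them in the RefSeq gene table (GRCm38.p6), and their values lay on opposite sides of 0. The genes between had log2 differences from -0.20 to 0.30 with a median of 0.05, and the 706 measured genes of the chromosome a median of 0.01. Of the 3 measured genes on each side of *Mfi2*, the ketone body enzyme *Bdh1* differed most, at 0.44, followed by the scaffold *Dlg1* at 0.16 and *0610012G03Rik* at 0.15. *Gm536* stood at -0.09, *Pigz*, of GPI anchor synthesis, at 0.08 and *Ncbp2*, of the mRNA cap-binding complex, at -0.00. Beside *Tfrc*, the kinase *Tnk2* stood at -0.16, its antisense neighbour *Tnk2os* at 0.11, *Slc51a*, a bile acid transporter subunit, at 0.04, and *Pcyt1a* and *Zdhhc19* at -0.02 each, with the mucin *Muc4* at 0.00. In each of these 12 neighbours the tumors of the 2 groups overlapped.

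**Figure D3:**
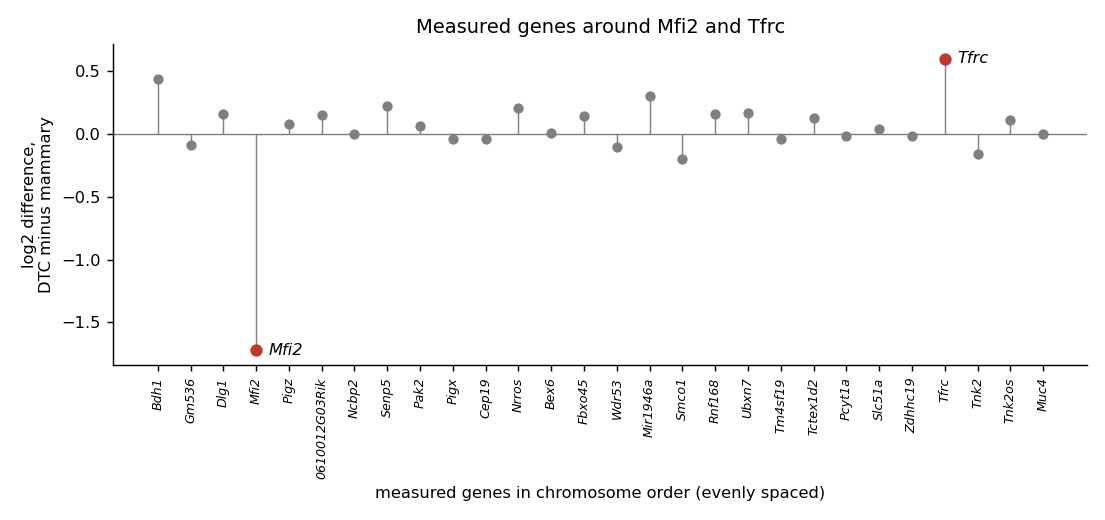
Log2 difference, DTC minus mammary tumors, of the measured genes of chromosome 16 from 3 genes before *Mfi2* to 3 genes after *Tfrc*, in chromosome order and evenly spaced, not to scale. *Mfi2* at -1.72 and *Tfrc* at 0.60 are in red, and the 20 genes between them lie from -0.20 to 0.30.

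The genes whose pattern over the 8 tumors was most like that of *Mfi2*, by the root mean square difference of log2 values centred on each gene's mean, were *Arhgef6* (0.31), which activates Rac, *Igfals* (0.31), a serum partner of insulin-like growth factors, *Cpeb2* (0.32), which binds messenger RNAs, *Nes* (0.36), an intermediate filament, and *Gstt2* (0.36), a glutathione transferase. The median of this measure over all genes was 0.91. The measure holds the difference between the groups on which *Mfi2* was chosen, so genes with a like difference come out nearest. The study itself lists *Arhgef6*, *Igfals*, *Cpeb2* and *Nes* for this contrast. No shared control is read from the likeness. Their log2 differences were -1.60 for *Arhgef6*, -1.59 for *Igfals*, -1.17 for *Cpeb2*, -1.28 for *Nes* and -1.52 for *Gstt2*. None is a gene of iron handling.

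Other genes of iron and haem handling were grouped in 6 lists by role, and more of them had a lower than a higher mean in DTC tumors. Of 57 listed genes 52 were measured and 23 passed the interquartile filter, and 0 of these passed the adjusted p of limma, the lowest being 0.0637. Without the filter 13 of the 52 (25%) had an unadjusted p of at most 0.05, 2 higher and 11 lower in DTC tumors, beside 13.4% of all genes. In 8 of the 52 (15.4%) all DTC tumors lay below all mammary tumors, beside 5.76% of all genes, and in 0 all lay above, beside 3.89%. The median log2 difference was -0.06, with 21 genes higher and 31 lower.

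Part of this lower side lay on 1 chromosome. *Slc22a17*, *Scara5*, *Slc25a37*, *Ncoa4* and *Slc39a14* are on chromosome 14, and all 5 had lower means in DTC tumors, 4 of them without overlap. The 621 genes of chromosome 14 above that dim level of 3.95 had a median log2 difference of -0.23, 73.4% were lower in DTC tumors and 34.5% had all DTC tumors below all mammary tumors. The 17042 such genes elsewhere had a median of 0.00, with 5.98% below without overlap. Of the 47 listed genes elsewhere, 21 were higher and 26 lower, and 4 (8.51%) were below without overlap. Among the members, *Mfi2* and its companions are on other chromosomes, whose medians lay between -0.01 and 0.02. What the lower values of chromosome 14 stem from was not tested.

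In iron uptake and reduction, 5 of 11 measured genes were higher and 6 lower, with a median of -0.02, or 0.06 without the 3 genes of chromosome 14. *Slc22a17*, a receptor of the iron-siderophore carrier lipocalin-2, had the largest difference, at 7.30, 7.33, 7.41 and 7.12 in DTC tumors 1 to 4, against 8.47, 7.96, 8.20 and 8.52 in mammary tumors 1 to 4. The groups did not overlap, and the log2 difference was -1.0 (standard error 0.17, adjusted p = 0.0637 from limma). It passed when a single probe set was kept for each gene (0.0133, adjusted p from limma), with array weights (0.0394) and with a robust trended variance (0.0382). In the other 14 of 17 alternatives it did not pass, with adjusted p values from limma of 0.0716 to 0.218 when any 1 tumor was left out. *Scara5*, a receptor for ferritin, was at 7.73 ± 0.22 in DTC tumors and 8.47 ± 0.30 in mammary tumors (SD, n = 4 each), a difference of -0.75 (adjusted p = 0.147 from limma). With a single probe set kept for each gene the adjusted p of *Scara5* from limma was 0.0492. Both genes lie on chromosome 14. The lipocalin *Lcn2* itself, named after its value was seen, was bright and differed by 0.04.

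In iron storage, delivery and export, 3 of 7 genes were higher and 4 lower, with a median of -0.23, which was -0.11 without *Ncoa4*. The ferroxidases that accompany ferroportin had the largest differences. Ceruloplasmin (*Cp*) averaged 10.12 ± 0.40 in DTC tumors and 10.88 ± 0.26 in mammary tumors (SD, n = 4 each), a difference of -0.76 with overlapping groups (adjusted p = 0.187 from limma). Hephaestin (*Heph*) averaged 5.19 ± 0.27 in DTC tumors and 5.76 ± 0.29 in mammary tumors (SD, n = 4 each), a difference of -0.58 without overlap (adjusted p = 0.258 from limma). *Ncoa4*, the receptor that sends ferritin to lysosomes, was picked after its value was seen and differed by -0.45 without overlap (adjusted p = 0.244 from limma).

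In iron sensing and the hepcidin axis, 5 of 10 genes were higher and 5 lower, with a median of 0.01. *Bmp6*, the ligand that drives hepcidin in liver, averaged 6.30 ± 0.89 in DTC tumors and 7.01 ± 0.28 in mammary tumors (SD, n = 4 each), a difference of -0.71 (adjusted p = 0.418 from limma). DTC tumor 4 (7.52) was the highest of all 8 tumors and DTC tumor 3 (5.37) the lowest, and the difference was -1.12 without the first and -0.40 without the second. *Hfe*, the haemochromatosis protein, which partners the transferrin receptor, differed by -0.48 without overlap (adjusted p = 0.235 from limma). The hepcidin genes *Hamp* and *Hamp2*, made mainly in liver, lay between 2.32 and 3.13 in DTC tumors and between 2.27 and 2.72 in mammary tumors, in the dim range under 3.95.

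Among genes of mitochondrial iron and iron-sulphur clusters, 1 of 6 measured genes was higher and 5 were lower, with a median of -0.13, or -0.06 without *Slc25a37*. *Slc25a37*, the mitochondrial iron importer mitoferrin-1, averaged 7.10 ± 0.16 in DTC tumors and 7.74 ± 0.39 in mammary tumors (SD, n = 4 each), a difference of -0.64 without overlap (adjusted p = 0.233 from limma). *Fdx1*, a ferredoxin, differed by -0.26 (adjusted p = 0.493 from limma). In haem synthesis 2 of 7 measured genes were higher and 5 lower, with a median of -0.09. *Fech*, which inserts iron into the haem ring, differed by -0.44 without overlap (adjusted p = 0.285 from limma). *Alad*, an early enzyme of the pathway, stood at -0.12 and under the filter (adjusted p = 0.913 from limma without it), and its value rested on DTC tumor 3, without which it was 0.19.

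In haem uptake, breakdown and transport 5 of 11 genes were higher and 6 lower, with a median of -0.04. *Abcg2*, an exporter of drugs and porphyrins, averaged 8.23 ± 0.55 in DTC tumors and 8.83 ± 0.10 in mammary tumors (SD, n = 4 each), a difference of -0.60 (adjusted p = 0.315 from limma), which was -0.40 without DTC tumor 3. *Flvcr2*, a transporter first described for haem, differed by -0.44 without overlap (adjusted p = 0.321 from limma).

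**Figure D4:**
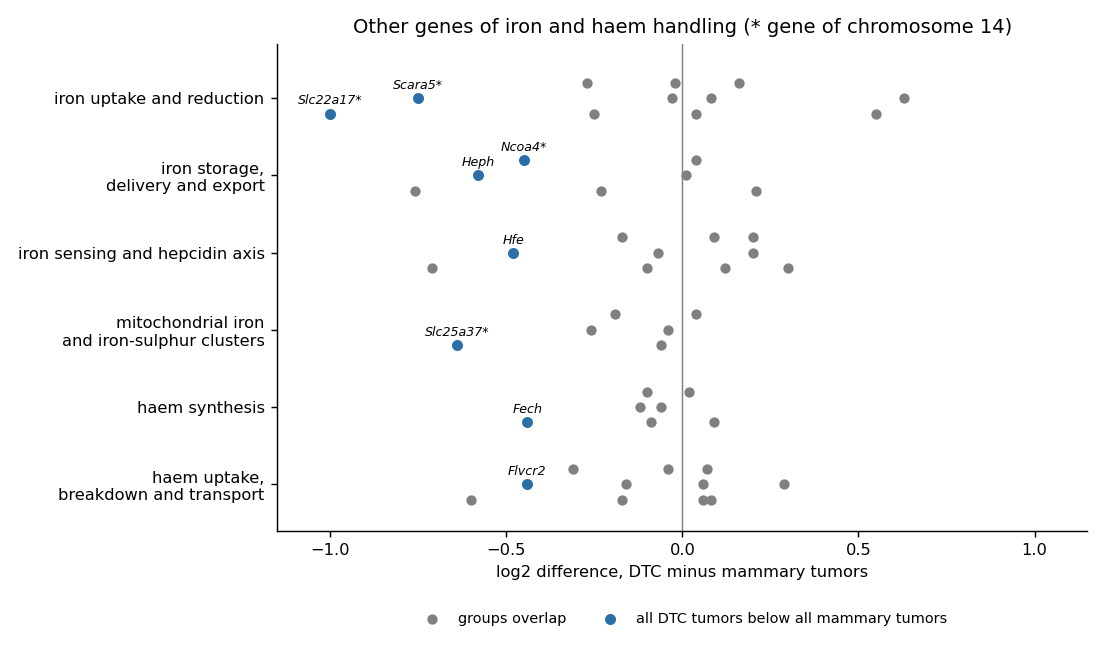
Log2 difference, DTC minus mammary tumors, of 52 measured genes of iron and haem handling, 1 row per list, with rows spread vertically only to separate points. Blue points with names are the 8 genes in which all DTC tumors lay below all mammary tumors, and an asterisk marks the 4 of these on chromosome 14.

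The arrays were alike over all probe sets, with correlations of 0.9773 to 0.9854 within the DTC group, 0.9793 to 0.9876 within the mammary group and 0.9752 to 0.9836 across groups. Tumor epithelium markers, *Erbb2* included, had median log2 levels of 10.39 to 10.71 in DTC tumors and 10.52 to 10.58 in mammary tumors. Of these 7 markers 2 had a higher and 5 a lower mean in DTC tumors, and 0 passed the adjusted p of limma. All DTC tumors lay below all mammary tumors for 2, *Epcam* (-0.38) and *Cldn3* (-0.39), beside 5.76% of all genes. The median of 6 fibroblast markers was 8.15 to 8.55 in DTC tumors and 8.66 to 9.23 in mammary tumors, without overlap. Of these 6 fibroblast markers 1, *Lum*, was below without overlap, beside 5.76% of all genes. A higher mean in DTC tumors was found for 2 of them and a lower one for 4. The part of fibroblasts in the values of the iron genes was not tested.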

How the data were processed

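RNA of 4 DTC tumors and 4 mammary tumors was measured on Affymetrix MoGene 2.0 ST arrays. The authors normalized the arrays in oneChannelGUI by the sketch-quantile method, and their deposited table holds log2 values of 41345 probe sets, all of them, before any interquartile filter. How probes were summarized, with which software versions and on which genome build is not given in the sources used here.

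Gene names came from the platform annotation, updated through RefSeq (GRCm38.p6). Of the probe sets, 23521 had 1 symbol, 1820 several and 16004 none, and a gene was read from its single-symbol probe set with the highest mean. Differences are DTC minus mammary tumors. They were fitted with lmFit and eBayes of limma 3.58.1 under R 4.3.3, with Benjamini-Hochberg adjustment, over 18877 probe sets, those whose interquartile range exceeded 0.25, and its standard errors and intervals are given. The methods name an empirical Bayes test and a false discovery rate but no package, and another passage of the paper a Bonferroni correction. Genes under that filter have the values of the fit without it. The fit was tested on simulated data. With log2 values, a fold between dim probe sets is likely understated.

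The members and lists were chosen with earlier results of these data known. The text names all 10 members, per list the 2 genes with the largest difference, 3 measured neighbours on each side of *Mfi2* and *Tfrc*, and the 5 genes most like *Mfi2*. Further names are marked in the text as picked with values in view, or are cell markers or listed genes of chromosome 14. The hepcidin genes, and the listed genes flagged below for a tumor that stood apart, are named as well. Listed genes without a single-symbol probe set (5) were not measured. Alternatives covered the filters, 1 probe set per gene, the normalization, array weights, the variance model, the replicate number as a block and each tumor left out. The promoter search and leaving out chromosome 14 were added after seeing the data. Proteins of the transferrin and ferritin families were not analysed here.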

Additional observations from a re-analysis of the deposited data

Results flagged for a closer look

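Among the 8 members no tumor stood apart from the other 3 of its group by Dixon's gap test. Among the listed pathway genes 8 did, 8 of 104 checks (7.69%), beside 5.69% over all genes, and chance gives about 1 in 20. Among DTC tumors, *Timd2*, a ferritin receptor in mouse, was at 5.21 in tumor 4 while the others lay between 6.15 and 6.32, and mitochondrial ferritin (*Ftmt*) was at 4.76 in tumor 1 with the others between 4.97 and 5.01. *Alad* was at 6.56 in DTC tumor 3 with the others between 7.80 and 7.86. Among mammary tumors, *Ncoa4* was at 6.26 in tumor 2 with the others between 5.89 and 5.94, and hepcidin 2 (*Hamp2*) was at 2.54 in tumor 2 with the others between 2.70 and 2.72. *Fdx1* was at 6.98 in mammary tumor 3 with the others between 7.32 and 7.37. In mammary tumor 4 the haem synthesis gene *Uros* was at 6.33 with the others between 6.83 and 6.89, and the biliverdin reductase *Blvra* was at 8.08 with the others at 7.83. Over all genes, DTC tumor 3 stood apart most often (2.25% of genes), followed by mammary tumor 4 (1.98%).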

How the results depend on the processing

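Of 419 alternative values, 393 kept the direction and the side of the threshold or stayed within the spread. The direction of every measured member held under each alternative run. The filters, 1 probe set per gene, the variance model and the block cannot change a gene's difference. Only the normalization, array weights and leaving out tumors could have turned a direction. No companion of *Mfi2* passed limma under any of them. *Tfrc* ranged over adjusted p values of 0.119 to 0.461, *Fth1* of 0.116 to 0.488 and *Hmox1* of 0.186 to 0.581. With the replicate number as a block, 7 probe sets and 0 members were called. The *Mfi2* difference stayed at -1.72, which the design fixes because each block holds a DTC tumor and a mammary tumor. Same-numbered tumors deviated together in 2 of 4 pairs (r of 0.007, 0.015, 0.168 and 0.194, with 0.1 as the limit). Pairs with different numbers ran from -0.182 to 0.047, below the values of numbers 3 and 4. The main fit left the tumors unpaired, and what the likeness of same-numbered tumors stems from was not tested. The 25 probe sets called became 86 with 1 probe set per gene, 46 with array weights, 57 with a robust trended variance and 15 with an interquartile range above 0.5. With 1 tumor left out the count ran from 9 to 47, at 15, 10 and 47 without DTC tumors 1, 2 and 3 and 11, 16 and 9 without mammary tumors 1, 2 and 3. *Alad* turned to 0.19 without DTC tumor 3 (adjusted p = 0.472 from limma). The median of the haem uptake, breakdown and transport list ran from -0.20 to -0.00 over 6 tumors left out in turn, that of the storage list was -0.33 without mammary tumor 2, and that of the sensing list was -0.04 without DTC tumor 3. Each measured member has only 1 single-symbol probe set, so no further probe set could be compared. The causes of these shifts were not tested.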
